A study of Mus musculus with 8 samples.

Results

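The AP-1 and early growth response factors described here are 9 transcription factor genes, taken from the deposited tables by their symbols: Fos, Fosb, Fosl1, Fosl2, Jun, Junb, Jund, Atf3 and Egr1. They are 9 of the 24421 genes in the tables, and all 9 were among the 12348 genes that passed the filter on low values. RNA was sequenced from osteoblastic cells of the calvaria, the flat bones of the skull, of newborn C57BL/6 mice. The 4 groups, each of 2 libraries, were WT and Def6-/- cells at day 0, in medium without ascorbic acid, and WT and Def6-/- cells at day 12 of osteogenic medium, which held ascorbic acid and β-glycerophosphate. Def6-/- mice lack Def6, a signaling protein best known from immune cells, and no sort for osteoblasts is named for the cells sequenced. The replicates are called biological by the study. The study names WT littermates as the controls for its work in vitro. Whether each replicate came from its own animals, and which libraries share a litter, was not stated in the sources used here. The p-values therefore measure the spread between these libraries, without a pairing of litters.

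AP-1 is a dimer of basic leucine zipper proteins that binds short DNA elements near its target genes. A FOS family protein (Fos, Fosb, Fosl1 or Fosl2) pairs with a JUN family protein (Jun, Junb or Jund), JUN proteins also pair with each other, and Atf3 is a stress-induced member of the same zipper class. Egr1 is a zinc finger factor. Fos, Fosb, Jun, Junb, Atf3 and Egr1 are immediate early genes, whose transcripts rise within minutes after serum, growth factors, stress or mechanical load through the MAPK cascade, and whose mRNAs are short-lived. In bone, mice without Fos lack osteoclasts, while Fosl1, Fosl2 and a short form of Fosb are known for promoting bone formation when overexpressed.

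To show what kinds of DNA elements lie just before RefSeq starts of these genes, windows of 250 bases are given on GRCm38.p6. They are those of Fos and Fosl2, which fell by day 12 in both genotypes, and of Jun, whose adjusted p did not pass in either. Capitals mark matches to the motifs searched.
Fos promoter, chr12:85473640-85473889, plus strand: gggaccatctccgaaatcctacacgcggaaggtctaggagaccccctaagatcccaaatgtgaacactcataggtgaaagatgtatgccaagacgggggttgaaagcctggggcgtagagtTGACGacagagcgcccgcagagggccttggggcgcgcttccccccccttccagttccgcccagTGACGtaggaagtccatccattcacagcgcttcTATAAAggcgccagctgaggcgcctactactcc
Fosl2 promoter, chr5:32136222-32136471, plus strand: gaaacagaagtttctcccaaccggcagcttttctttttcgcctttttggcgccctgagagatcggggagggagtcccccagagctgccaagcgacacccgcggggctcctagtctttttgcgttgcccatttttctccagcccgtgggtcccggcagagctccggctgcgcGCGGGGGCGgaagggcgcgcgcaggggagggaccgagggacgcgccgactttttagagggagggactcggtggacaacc
Jun promoter, chr4:95052223-95052472, minus strand: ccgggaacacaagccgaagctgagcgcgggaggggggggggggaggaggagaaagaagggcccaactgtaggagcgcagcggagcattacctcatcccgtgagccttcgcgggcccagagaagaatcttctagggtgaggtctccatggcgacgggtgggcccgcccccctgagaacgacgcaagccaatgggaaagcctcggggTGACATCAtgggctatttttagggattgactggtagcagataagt
The Fos window holds 2 copies of TGACG, the core of the cyclic AMP response element, and a TATAAA box 33 to 28 bases before the start. TGACG is also in the windows of Fosb, Junb and, on the opposite strand, Atf3. The Jun window holds TGACATCA, a variant of the AP-1 and cyclic AMP element, 45 to 38 bases before the start. The Fosl2 window holds GCGGGGGCG, a form of the element bound by Egr1 and its relatives, 79 to 71 bases before the start, and the Fosb window holds the same letters. Among 32544 distinct promoter windows of this length, TGACG on either strand occurs in 17.8%, TATAAA on the sense strand in 7.55%, TGACATCA on either strand in 2.84%, and GCGTGGGCG or GCGGGGGCG on either strand in 3.09%. The canonical AP-1 element, TGACTCA or TGAGTCA, occurs in 4.46% of windows, the full cyclic AMP element TGACGTCA in 1.55% and the CArG box bound by SRF in 1.48%. None of these 3 is in the 7 RefSeq windows used, those of Atf3 and of the FOS and JUN family genes other than Fosl1. Elements farther than 250 bases from the start, and those of Fosl1 and Egr1, were not searched. For some of these genes the RefSeq start differs from that of the GENCODE annotation, which gave the gene positions here. The Fosl2 and Atf3 windows lie inside the GENCODE spans (Fosl2 32135801 to 32157842, Atf3 191170296 to 191218039). The Jund window ends at base 70697738, before its GENCODE start at 70698949. These matches describe the letters in the windows and were not tested as binding sites.

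In WT libraries Def6 had between 112 and 186 reads, and in Def6-/- libraries between 0 and 2, as the labels have it. The libraries held between 2414856 and 3482837 reads on genes, which were 28.8% to 35.3% of all their reads. Values below are normalized CPM, that is, CPM on the basis of reads on genes, after a correction for composition, and tests are from limma on log2(normalized CPM + 1) with Benjamini-Hochberg adjustment over all 12348 genes. Among markers of the osteoblast lineage, Col1a1, the main collagen of bone, lay between 13200 and 63689 normalized CPM. Means at day 0 in WT and Def6-/- cells were 78.1 and 95.1 for Runx2 and 60.2 and 73.1 for Sp7. They were 0.77 and 1.06 for Phex and 1.58 and 1.11 for Dmp1, while Bglap and Bglap2 had 0 reads at day 0. The 18 macrophage markers summed to between 219 and 471 normalized CPM at day 0 and between 3402 and 6635 at day 12, and no library at day 12 was at 0 reads for any of them. In these bulk samples, fewer cells of a type and less RNA per cell cannot be told apart. WT replicates at day 0 differed more than those of the other groups, with an SD over genes of 0.78 for the log2 difference between replicates, against 0.38 to 0.43 elsewhere. Of the 4 day 0 libraries, WT replicate 1 had the largest share of reads without a unique place in the genome (34.9%).

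Most of the 9 genes were lower at day 12 than at day 0 in both genotypes, and the FOS family genes Fos, Fosl1 and Fosl2 fell by the adjusted test in both. Atf3 ran the other way, and its rise and the fall of Egr1 passed the adjusted test in Def6-/- cells only. In WT cells both genes had the same direction, and no difference between the genotypes in these changes was detected. In WT cells, 3 of the 9 passed an adjusted p of 0.05, all of them lower (Fos, Fosl1 and Fosl2), where 5.63% of all tested genes were called lower and 12.7% higher. In Def6-/- cells 5 passed, with Fos, Fosl1, Fosl2 and Egr1 lower and Atf3 higher, where 4.79% of tested genes were called lower and 12% higher. By the looser rule of the study, an unadjusted limma p under 0.05 with a change over 1.2-fold, 5 genes were lower and 1 higher in WT cells (13.6% and 18.9% of tested genes), and 6 were lower and 2 higher in Def6-/- cells (11.4% and 18.6% of tested genes). Fosb, 1 of the 2 higher in Def6-/- cells by this rule, passed the filter on low values only through its day 12 groups. On the log2 scale the median change of the 9 genes was -0.90 in each genotype, against 0.00 and 0.01 over all tested genes.

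**Figure D1:**
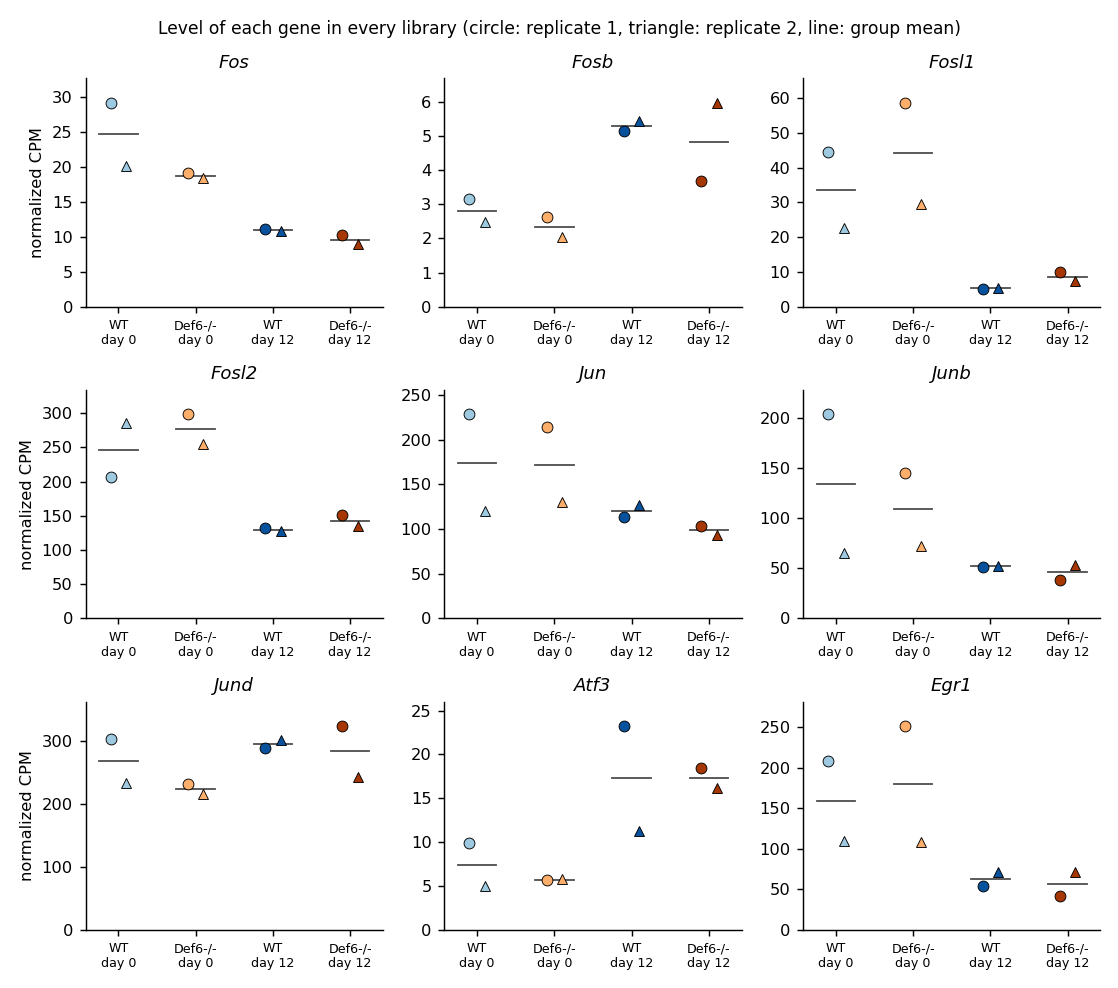
Normalized CPM of each of the 9 genes (vertical axis, linear, from 0) in the 4 groups of 2 libraries, with circles for replicate 1, triangles for replicate 2 and a line for the group mean. Fos, Fosl1, Fosl2, Junb and Egr1 lie lower at day 12 than at day 0 in both genotypes with no overlap, Fosb and Atf3 lie higher, and Fosl1, Jun, Junb and Egr1 differ widely between the 2 libraries of each day 0 group.

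By exon length, Fosl2 and Fosl1 led the FOS family at day 0. Fosl1, also known as Fra-1, a FOS protein without a transactivation domain of its own, had the largest change of the 9 genes. It lay at 44.6 and 22.6 normalized CPM in the WT libraries and at 58.7 and 29.6 in the Def6-/- libraries at day 0, and at 5.17 and 5.44 in WT and 9.85 and 7.26 in Def6-/- libraries at day 12. Every day 0 library was above every day 12 library. The change was -2.38 on the log2 scale in WT cells (SE 0.41, limma adjusted p = 0.00448) and -2.18 in Def6-/- cells (SE 0.41, adjusted p = 0.00675). At day 12 its level rested on 13 to 24 reads a library. Reads of Fosl1 may include those of Ccdc85b, which overlaps it on the opposite strand (chromosome 19, 5447547 to 5455946 for Fosl1), since the strand setting of the counting was not given in the sources used here.

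Fosl2, or Fra-2, a relative of Fosl1 that acts in osteoblast differentiation, was the most abundant FOS family transcript per exon length in each group. It was at 207 and 285 normalized CPM in WT and 298 and 254 in Def6-/- libraries at day 0, and at 132 and 127 in WT and 151 and 134 in Def6-/- libraries at day 12. The days did not overlap in either genotype. Fosl2 fell by 0.90 on the log2 scale in WT cells (SE 0.20, limma adjusted p = 0.0150) and by 0.95 in Def6-/- cells (SE 0.20, adjusted p = 0.0122). The WT call was lost on CPM as deposited (limma adjusted p = 0.0539) and with only the 2 WT groups fitted (adjusted p = 0.0942). Fosl2 lies on chromosome 5 from 32135801 to 32157842.

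Fos itself, the founding immediate early gene of the family, was at 29.2 and 20.1 normalized CPM in WT and 19.2 and 18.4 in Def6-/- libraries at day 0. At day 12 Fos was at 11.2 and 10.9 in WT and 10.3 and 8.97 in Def6-/- libraries. All day 12 libraries lay below all day 0 libraries. Its change was -1.07 in WT cells (SE 0.26, limma adjusted p = 0.0237) and -0.90 in Def6-/- cells (SE 0.26, adjusted p = 0.0489) on the log2 scale. The call in Def6-/- cells was close to the threshold and was lost with edgeR (adjusted p = 0.0561) and DESeq2 (adjusted p = 0.151) on recovered reads and without the filter on low genes (limma adjusted p = 0.0737). The WT call was lost with only the 2 WT groups fitted (limma adjusted p = 0.108).

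Fosb, whose short splice form acts in bone and brain, had the fewest reads of the 9 genes, 6 to 18 a library. It was at 3.16 and 2.47 normalized CPM in WT and 2.63 and 2.04 in Def6-/- libraries at day 0, and at 5.17 and 5.44 in WT and 3.70 and 5.98 in Def6-/- libraries at day 12. Both day 12 libraries lay above both day 0 libraries in each genotype, opposite to its 3 relatives. Fosb passed the filter on low values only through its day 12 groups. Its deposited CPM was 0.73 to 0.90 in day 0 libraries and 1.26 to 1.93 in day 12 libraries. Its higher level at day 12 is therefore not independent of that filter. The differences, 0.73 in WT cells (SE 0.34, limma adjusted p = 0.180) and 0.78 in Def6-/- cells (SE 0.34, adjusted p = 0.166), did not pass the adjusted test.

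Of the JUN family, Junb, an immediate early gene that can restrain or replace Jun, had the widest spread at day 0. It was at 204 and 65.0 normalized CPM in WT and 145 and 72.5 in Def6-/- libraries at day 0, and at 51.4 and 52.3 in WT and 38.2 and 53.4 in Def6-/- libraries at day 12. The days did not overlap, but replicates at day 0 were farther apart than replicate 2 of day 0 was from day 12. Its change was -1.14 in WT cells (SE 0.50, limma adjusted p = 0.152) and -1.17 in Def6-/- cells (SE 0.50, adjusted p = 0.155). Both had an unadjusted limma p under 0.05. At its 3′ side Junb (chromosome 8, 84974484 to 84978718) overlaps Prdx2 on the opposite strand, whose reads could be mixed with its own.

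Jun, the prototype of the family, was at 228 and 120 normalized CPM in WT and 214 and 130 in Def6-/- libraries at day 0. At day 12 it was at 114 and 126 in WT and 104 and 93.5 in Def6-/- libraries. The days overlapped in WT cells and did not in Def6-/- cells. The difference was -0.46 in WT cells (SE 0.32, limma adjusted p = 0.366) and -0.75 in Def6-/- cells (SE 0.32, adjusted p = 0.157). Without WT day 0 replicate 1, the WT difference was 0.0033.

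Jund, the JUN protein that is made in resting cells, was the most abundant of the 9 transcripts by exon length and differed least between days in WT cells. It was at 303 and 233 normalized CPM in WT and 231 and 216 in Def6-/- libraries at day 0, and at 289 and 300 in WT and 323 and 243 in Def6-/- libraries at day 12. The days overlapped in WT cells, while in Def6-/- cells both day 12 libraries were higher. The differences were 0.15 (95% interval -0.31 to 0.61) in WT cells and 0.32 (-0.14 to 0.79) in Def6-/- cells, neither called by limma after adjustment. Jund and Jun are each a single exon, and an antisense gene overlaps each of them.

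**Figure D2:**
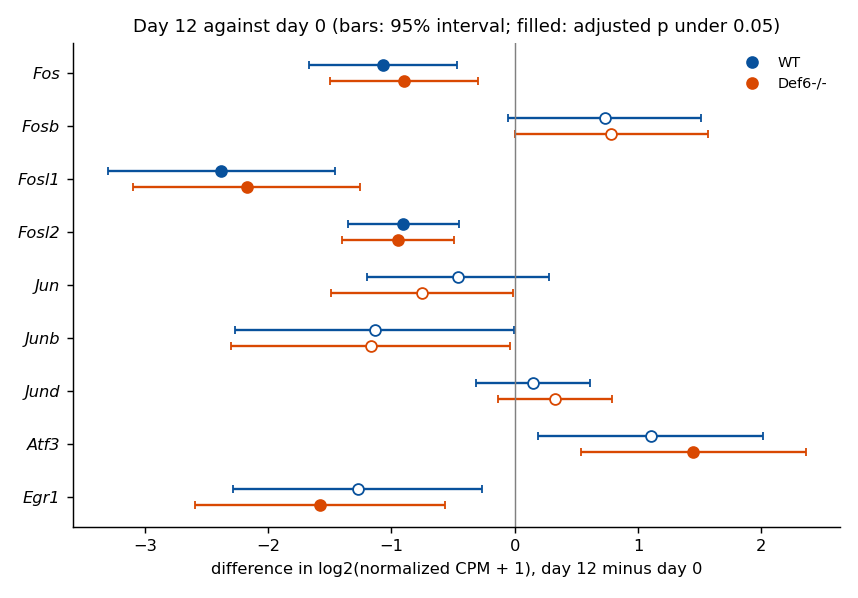
Difference in log2(normalized CPM + 1) between day 12 and day 0 (horizontal axis) for each gene in WT (blue) and Def6-/- cells (orange), with 95% intervals from limma and filled points for an adjusted p under 0.05. Fosl1 lies farthest from 0 at -2.38 and -2.18, and the intervals of Jund include 0 in both genotypes.

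Atf3, a stress-responsive repressor and AP-1 partner, had the opposite sign to Fos, Fosl1 and Fosl2 and the same sign as Fosb. It was at 9.87 and 4.95 normalized CPM in WT and 5.64 and 5.79 in Def6-/- libraries at day 0, and at 23.2 and 11.3 in WT and 18.5 and 16.2 in Def6-/- libraries at day 12. Every day 12 library was above every day 0 library. It rose by 1.45 on the log2 scale in Def6-/- cells (SE 0.40, limma adjusted p = 0.0395), and the difference in WT cells was 1.10 (SE 0.40, adjusted p = 0.0937). The call in Def6-/- cells was lost without the filter on low genes (limma adjusted p = 0.0604). Its reads were 14 to 81 a library. Macrophages also express Atf3, and the macrophage marker sum was highest in WT day 12 replicate 1 (6635), the library with the highest Atf3. The sum was 3402 in the other WT day 12 library, where Atf3 was at 11.3. The part of these cells in the rise was not tested.

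Egr1, an immediate early zinc finger factor induced by serum and load, was at 209 and 109 normalized CPM in WT and 252 and 109 in Def6-/- libraries at day 0. At day 12 it was at 53.7 and 71.2 in WT and 41.9 and 71.7 in Def6-/- libraries. The days did not overlap in either genotype, and at day 0 replicate 1 was above replicate 2 while at day 12 it was below, in both genotypes. Egr1 fell by 1.58 on the log2 scale in Def6-/- cells (SE 0.45, limma adjusted p = 0.0428), a call lost without the filter on low genes (adjusted p = 0.0556). In WT cells its change was -1.27 (SE 0.45, adjusted p = 0.0831), which passed the looser rule only.

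In 7 of the 9 genes the 2 WT libraries of one day lay beyond both of the other, 5 of them lower at day 12 and 2 higher, where 26.6% of tested genes were lower and 29.3% higher in this sense. In Def6-/- cells this held for all 9 genes, 6 lower and 3 higher (32.4% and 35.2% of tested genes). Fosb, counted as higher in both genotypes, passed the filter on low values only through its day 12 groups.

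These counts moved with single libraries, and so did the share of all tested genes called in either direction, which was 18.3% in WT and 16.8% in Def6-/- cells with all 8 libraries. In WT cells the adjusted count was 1 without day 12 replicate 1 or 2 (Fosl1 in both cases, 7.18% and 8.02% of tested genes) and 6 without day 0 replicate 2 (46.1% of tested genes). It was 3 without day 0 replicate 1 (25.1% of tested genes), when Fosl1, Fosl2 and Atf3 (1.54, adjusted p = 0.0153) were called and Fos (-0.81, adjusted p = 0.0585) was not. In Def6-/- cells it was 0 without day 0 replicate 1 (7.51% of tested genes) or day 12 replicate 2 (7.71%), and 1 without day 12 replicate 1 (7.68%). It was 3 without day 0 replicate 2 (9.31%) or either WT day 12 library (12.6% each). Without WT day 0 replicate 1 or 2 it was 7, with Jun and Junb joining, where 34.8% and 35.1% of tested genes were called. The changes of Fos, Fosb, Fosl1, Fosl2, Junb, Atf3 and Egr1 kept their direction in both genotypes under each of these omissions. This had to be so, because the libraries of the days did not overlap for these genes, and it adds no separate support.

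The day 0 libraries split in a way that touched several of these genes alike. In both genotypes replicate 1 exceeded replicate 2, by 1.97-fold in WT and 1.98-fold in Def6-/- cells for Fosl1, 1.91-fold and 1.65-fold for Jun, 3.13-fold and 2.0-fold for Junb, and 1.91-fold and 2.31-fold for Egr1. Fosl2 went the other way in WT cells, at 1.38-fold higher in replicate 2. The summed level of 29 other immediate early genes was 5652 and 2853 normalized CPM in WT replicates 1 and 2 at day 0 and 4494 and 3184 in the Def6-/- replicates, and at day 12 it was between 1692 and 1834. The summed level of 15 proliferation genes went opposite at day 0, at 471 and 1045 in WT and 523 and 857 in Def6-/- replicates 1 and 2. The labels give no batch, harvest or feeding time, and the part of these differences in the changes with day was not tested.

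Per kilobase of exon, transcripts of the FOS family summed to between 49.0 and 68.3 normalized CPM at day 0 and between 21.3 and 25.4 at day 12. The JUN family sum was between 201.5 and 342 at day 0 and between 198 and 243 at day 12, so that its libraries overlapped between days. The ratio of the JUN to the FOS sum was 6.07 and 4.15 in WT and 3.94 and 4.11 in Def6-/- libraries at day 0. At day 12 the ratio was 10.6 and 11.4 in WT and 9.56 and 8.90 in Def6-/- libraries, above each day 0 library. The make-up within the families also differed between days. Fosl1 was 22.5% to 42.3% of the FOS family level per kilobase at day 0 and 11.7% to 19.1% at day 12, and Fosl2 was 38.0% to 59.5% and 61.4% to 62.6%. Jund was 51.6% to 68.0% of the JUN family level at day 0 and 73.5% to 79.8% at day 12. Junb was 13.8% to 25.9% at day 0 and 6.83% to 11.7% at day 12. These shares follow from the levels above and are a description, with no test.

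**Figure D3:**
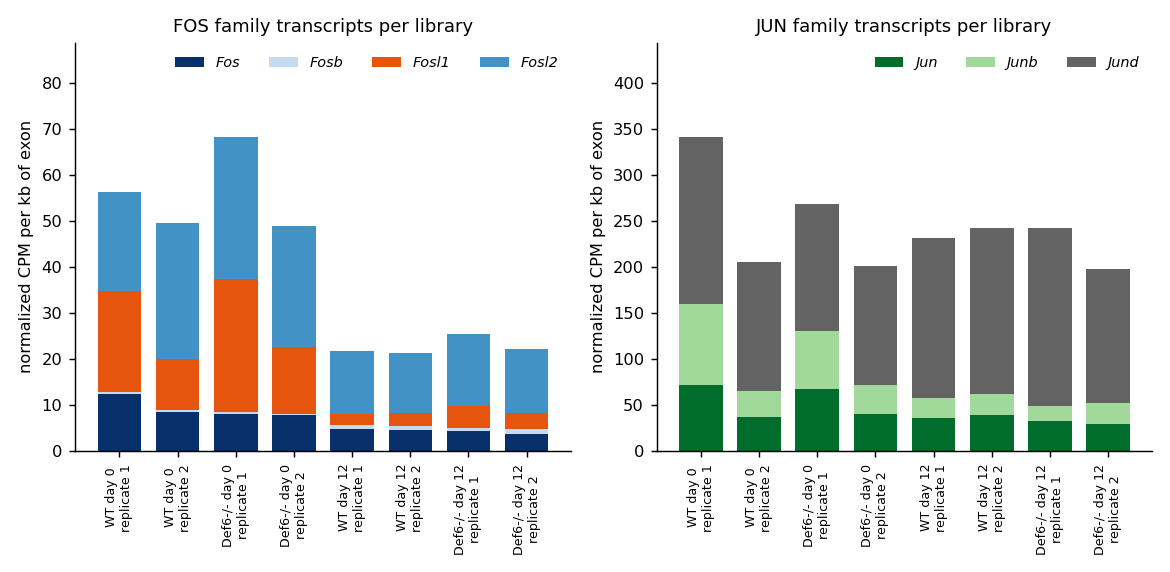
Level of each FOS family gene (left) and JUN family gene (right) in every library, stacked, in normalized CPM per kb of exon (vertical axes, linear, from 0). The FOS stack is 49.0 to 68.3 in the 4 day 0 libraries and 21.3 to 25.4 in the 4 day 12 libraries, while the JUN stack overlaps between days and is mostly Jund.

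By mean level per kilobase of exon, the order was Jund, Junb, Jun, Egr1, Fosl2, Fosl1, Fos, Atf3 and Fosb in WT cells at day 0. Jund was at 161 ± 29.6 (SD, n = 2), followed by Junb at 58.4 ± 42.6, Jun at 54.6 ± 24.1 and Egr1 at 35.5 ± 15.7, and these 3 overlapped each other between libraries. Fosl2 (25.4 ± 5.69) overlapped with Egr1 and with Fosl1 (16.5 ± 7.65), and Fosl1 with Fos (10.5 ± 2.73). In WT cells at day 12 the order was Jund (177 ± 4.76), Jun (37.7 ± 2.78), Junb (22.5 ± 0.298), Egr1 (13.9 ± 2.76), Fosl2 (13.4 ± 0.324), Atf3 (8.02 ± 3.92), Fos (4.69 ± 0.0919), Fosl1 (2.61 ± 0.0966) and Fosb (0.850 ± 0.0315). Egr1 and Fosl2 overlapped there, and the other neighbours did not. In the WT means Fosl1 went from above Fos and Atf3 to below both. In Def6-/- cells at day 12 it was below Atf3 (8.06 ± 0.740) and overlapped Fos, at 4.21 ± 0.903 against 4.09 ± 0.391.

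The partners and regulators around these genes changed unevenly. Among the 10 tested of 13 basic leucine zipper partners and inhibitors of AP-1, 1 rose and 2 fell in WT cells by limma's adjusted p, with a median of -0.22. Of all tested genes, 12.7% rose and 5.63% fell by this measure. Maf, a large MAF factor expressed in osteoblasts and macrophages, went from 70.1 ± 10.3 to 193 ± 35.4 normalized CPM (SD, n = 2; log2 change 1.45, adjusted p = 0.00213). Maff, a small MAF protein induced by stress, went from 88.3 ± 31.4 to 11.7 ± 0.672 (-2.77, adjusted p = 0.000317), a larger log2 change than that of Fosl1. Atf4, the stress factor that drives osteocalcin and amino acid import in osteoblasts, went from 410 ± 119 to 175 ± 1.18 (-1.19, adjusted p = 0.0288). In Def6-/- cells Maf rose (1.11) and Maff fell (-2.13), while Atf4 (-0.83, adjusted p = 0.109) was not called.

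The relatives of Egr1 and their NAB corepressors had no adjusted call in either genotype, with 4 of 5 genes tested. Egr2 was at 17.1 ± 14.3 normalized CPM at day 0 and 6.41 ± 3.38 at day 12 in WT cells (-1.11, adjusted p = 0.248). Egr3, at 9.89 ± 4.99 and 14.6 ± 3.62, had a difference of 0.58 (adjusted p = 0.437). Nab2 (-0.41) had an unadjusted limma p of 0.0483, with an adjusted p of 0.151, and Nab1 was at 0.34 (adjusted p = 0.268).

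Of 28 tested among 29 other immediate early genes, 5 fell and 0 rose in WT cells by limma's adjusted p, and 7 fell and 0 rose in Def6-/- cells. Of all tested genes, 5.63% were called lower and 12.7% higher in WT cells, and 4.79% and 12% in Def6-/- cells. The looser rule gave 14 lower and 1 higher in WT and 15 lower and 0 higher in Def6-/- cells. Over all tested genes this rule gave 13.6% lower and 18.9% higher in WT cells, and 11.4% and 18.6% in Def6-/- cells. The median change of these immediate early genes was -0.63 in WT and -0.73 in Def6-/- cells. Dusp1, the phosphatase that switches off MAP kinases, went from 119 ± 36.5 to 20.8 ± 1.01 normalized CPM in WT cells (SD, n = 2; -2.43, adjusted p = 0.000697), and Ier3 from 64.4 ± 29.5 to 12.7 ± 1.95 (-2.19, adjusted p = 0.00367). Nr4a2 (0.85, adjusted p = 0.0909) and Klf4 (0.25, adjusted p = 0.516) had positive differences that did not pass.

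The MAPK cascade that leads to these genes, with its SRF cofactors and feedback inhibitors, stayed near 0 in the median (-0.02 in WT and -0.05 in Def6-/- cells, 22 of 22 tested). By limma's adjusted p, 1 gene rose in WT cells and 2 in Def6-/- cells, and 0 fell in either. Of all tested genes, 12.7% rose and 5.63% fell in WT cells, and 12% and 4.79% in Def6-/- cells. Dusp4, a nuclear phosphatase of MAP kinases, went from 2.26 ± 0.704 to 22.9 ± 8.65 normalized CPM in WT cells (2.84, adjusted p = 0.00104) and rose by 1.89 in Def6-/- cells. Dusp6, a cytoplasmic phosphatase of the same family, had a difference of 0.69 (adjusted p = 0.179). Map2k2, a kinase of the cascade, had -0.67 (adjusted p = 0.0809).

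**Figure D4:**
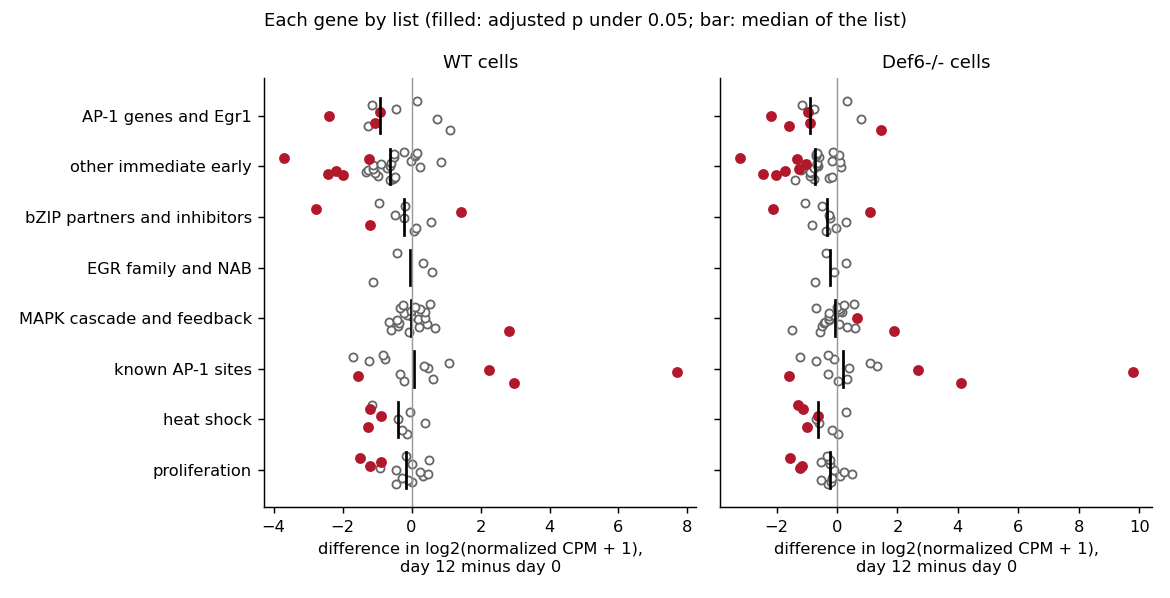
Difference in log2(normalized CPM + 1), day 12 minus day 0 (horizontal axis), for each tested gene of 8 lists (rows) in WT cells (left) and Def6-/- cells (right), with filled points for an adjusted p under 0.05 and a bar at each list's median. The medians of the AP-1 genes with Egr1 (-0.90 in both) and of the other immediate early genes (-0.63 and -0.73) lie left of 0, and that of the MAPK cascade lies near 0.

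Genes with known AP-1 sites did not move together. By limma's adjusted p, 3 rose and 1 fell of 14 tested among 16 in WT cells, where 12.7% and 5.63% of all tested genes did. Def6-/- cells had the same counts, against 12% and 4.79% of all tested genes. The median was 0.08 in WT and 0.19 in Def6-/- cells. Ibsp, Bglap and Spp1 of this list are also on the list of osteoblast markers. Ibsp, bone sialoprotein, went from 5.48 ± 6.76 to 956 ± 433 normalized CPM in WT cells (SD, n = 2; 7.69, adjusted p = 0.000270). Bglap, osteocalcin, was at 0 reads in both WT libraries at day 0 and at 6.93 ± 0.865 normalized CPM at day 12, and its reads may be split with its near-identical neighbour Bglap2. Counted among the 3 that rose, Bglap passed the filter on low values only at day 12. Cd44, a hyaluronan receptor, went from 508 ± 92.7 to 171 ± 10.4 (-1.56, adjusted p = 0.00102). Timp1, an inhibitor of matrix metalloproteinases, had -1.69 with an adjusted p of 0.0509.

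Other programs moved over the same days, with counts by limma's adjusted p. Of all tested genes, 5.63% were called lower and 12.7% higher in WT cells, and 4.79% and 12% in Def6-/- cells. Of 9 heat shock genes, 3 fell in WT and 4 in Def6-/- cells, and their sum was between 1414 and 1685 normalized CPM at day 0 and between 785 and 861 at day 12. Hspd1 (-1.21) and Hsp90aa1 (-1.27) were the examples in WT cells, and Hspa1a had 0.39 (adjusted p = 0.524). Of 15 proliferation genes, 3 fell in each genotype, among them Rrm2 (-1.5, adjusted p = 0.0105) and Pcna (-0.88, adjusted p = 0.0161) in WT cells. The list was mixed, with 6 positive differences in WT and 3 in Def6-/- cells, none of them called. Of the 13 osteoblast markers, 7 rose in WT and 8 in Def6-/- cells, while 2 and 1 had negative differences. Bglap, Bglap2, Dmp1 and Phex, called in both genotypes, passed the filter on low values only at day 12. Their rise is therefore not independent of that filter. Of the 18 macrophage markers, 16 rose in WT and 15 in Def6-/- cells, Ctss (3.92) and Laptm5 (3.5) with the smallest p in WT cells. In each genotype 1 had a negative difference. Aif1, called in WT cells, passed the filter on low values only at day 12. All 6 adipocyte markers had positive differences in both genotypes, 5 called in WT and 6 in Def6-/- cells. Of these, Adipoq, Cfd, Fabp4 and Plin1 passed the filter on low values only at day 12. Their higher level at day 12 is therefore not independent of that filter. The part of these cells and programs in the changes of the AP-1 genes was not tested.

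The genes whose levels followed Fos most closely over the 8 libraries were Nmt1 (Pearson r = 0.998), Pgrmc1 (0.994) and Hsp90aa1 (0.990), among 9593 genes with a mean of at least 10 normalized CPM. For Fosl1 these were Nolc1 (0.991), Rcl1 (0.990) and Ddx21 (0.990), and for Egr1 they were Rgs12 (0.990), Nes (0.988) and Hnrnpd (0.986). The r was taken on log2(normalized CPM + 1). The 8 libraries fall into 2 days, so each r reflects the day difference to a large degree.

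The next comparison asked whether loss of Def6 changed the 9 genes. At day 12, none of them differed between Def6-/- and WT cells by limma's adjusted p or by the looser rule. At the adjusted threshold, 0.0081% of tested genes were lower (1 gene, Def6) and 0% were higher, and by the looser rule 0.591% were lower and 0.81% higher. The 9 differences lay between -0.28 and 0.59, with a median of -0.14. Fosl1 had the largest, with Def6-/- libraries at 9.85 and 7.26 and WT libraries at 5.17 and 5.44 normalized CPM, 0.59 on the log2 scale (95% interval -0.33 to 1.51, limma adjusted p = 1). Jun followed at -0.28 (-1.02 to 0.45), Fos at -0.18 (-0.78 to 0.42) and Fosl2 at 0.14 (-0.32 to 0.59), each without overlap of the genotypes. Thus 2 of the 9 genes were lower without overlap and 2 were higher, where 15.9% and 16.8% of tested genes were. The genotypes overlapped in Fosb (-0.14), Junb (-0.20), Jund (-0.07), Atf3 (0.08) and Egr1 (-0.17). The intervals of Junb (-1.33 to 0.94) and Egr1 (-1.18 to 0.84) leave room for changes in either direction.

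At day 0 none of the 9 genes passed either rule, where 0% of tested genes were higher and 0.0081% (1 gene, Def6) lower by adjusted p, and 0.988% and 1.31% by the looser rule. Fos was at 19.2 and 18.4 in Def6-/- and 29.2 and 20.1 in WT libraries, a difference of -0.35 (95% interval -0.95 to 0.25). Jund was at 231 and 216 in Def6-/- and 303 and 233 in WT libraries, a difference of -0.25 (-0.71 to 0.21). These 2 genes were lower in each library of Def6-/- cells than in each of WT cells, as 11.7% of tested genes were, and 10.9% were higher in this sense. The other differences were Fosl1 0.38, Fosl2 0.18, Egr1 0.13, Jun 0.01, Junb -0.16, Fosb -0.19 and Atf3 -0.26. Leaving out a WT day 0 library changed these values and the calls over all genes. Without replicate 2, 23.8% of tested genes passed the adjusted threshold, Junb among them (-0.98, limma adjusted p = 0.0438), and without replicate 1 Junb had 0.65. By the looser rule Fosl2, Junb and Jund passed without replicate 2, as did 37.1% of tested genes, and Fosl1 passed without replicate 1, as did 4.45%.

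**Figure D5:**
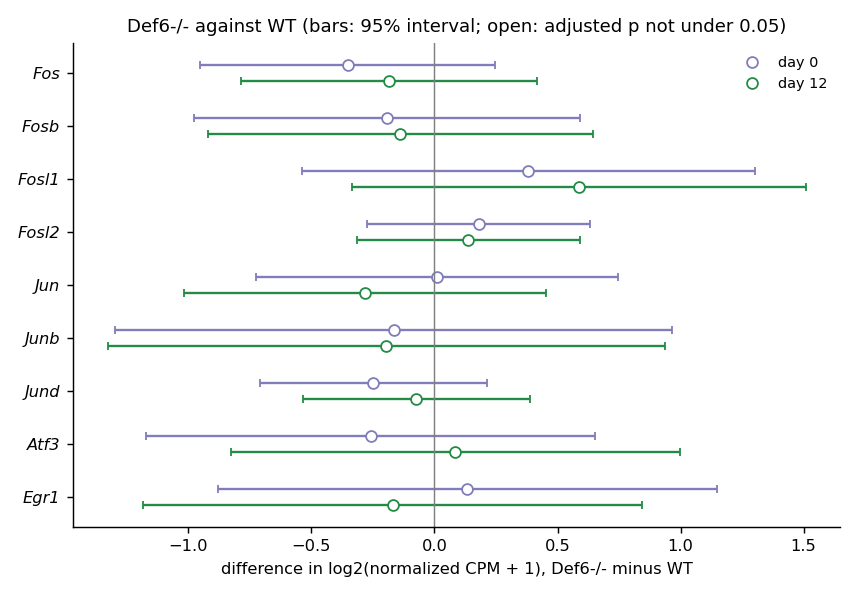
Difference in log2(normalized CPM + 1) between Def6-/- and WT cells (horizontal axis) for each gene at day 0 (purple) and day 12 (green), with 95% intervals from limma. All 18 intervals include 0, and the largest difference is that of Fosl1 at day 12, 0.59.

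The change with day was then compared between the genotypes in the same fit. The interaction, the change in Def6-/- minus the change in WT cells, lay between -0.30 for Egr1 and 0.34 for Atf3 on the log2 scale. No gene of the 9 had an adjusted limma p under 0.05 or passed the looser rule. Over all tested genes 0% were called higher and 0% lower by adjusted p, and 0.696% and 0.421% by the looser rule. Egr1 and Atf3, called with day in Def6-/- and not in WT cells, had interactions of -0.30 (SE 0.63) and 0.34 (SE 0.57), so that a difference between the genotypes in these changes was not detected. Without WT day 0 replicate 1, Jun passed the looser rule for the interaction, as did 3.52% of tested genes.

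In the lists around the 9 genes, no gene differed between the genotypes at day 12 by adjusted p. The differences with the smallest p in each direction among zipper partners were 0.32 for Maff and 0.20 for Creb1, and -0.27 for Atf1 and -0.18 for Mafk. Among other immediate early genes they were 0.47 for Klf4, 0.40 for Myc, -0.69 for Trib1 and -0.26 for Btg2. In the MAPK list they were 0.27 for Elk1, 0.14 for Mkl1, -0.67 for Dusp5 and -0.19 for Mapk14, and in the EGR list Nab2 had 0.16, Egr2 0.32 and Egr3 -0.31. Bglap, among the genes with known AP-1 sites, was at 16.5 ± 3.39 normalized CPM in Def6-/- and 6.93 ± 0.865 in WT cells at day 12, with an unadjusted limma p of 0.00935 and an adjusted p of 1. The macrophage markers summed to 4139 and 3664 in Def6-/- and 6635 and 3402 in WT libraries at day 12.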

How the data were processed

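RNA of 8 libraries, 2 for each genotype and day, was measured by poly-A RNA-seq. Per the labels and the study's methods, the authors used fastp, HISAT2 (mm10), HTSeq for counts per gene and edgeR for CPM. Versions, annotation and strand setting were not given in the sources used here. The authors deposited CPM per gene for each library, scaled to the total of reads inside and outside genes. Of the positive values, 99.957% are whole multiples of 1 read within 0.01 reads, and the 49 others lie in 9 macrophage and osteoclast markers (Ptprc is on the macrophage list here).

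CPM was rescaled to reads on genes with TMM factors (edgeR 4.0.16). A gene was kept where 1 or more groups had a mean of 1 deposited CPM or over, and log2(normalized CPM + 1) was fitted with limma 3.58.1 (lmFit, eBayes with trend, 4 group means, 8 libraries) in R 4.3.3. The pseudocount understates changes of low genes. The edgeR test that counts would call for, with DESeq2 1.42.0, was run on recovered reads. Scripts were tested on simulated reads with the same relative spread for all genes and libraries, for the day 12 genotype comparison only. That test does not cover the wider spread of the WT day 0 replicates or the comparisons of days. Replicate numbers name libraries only, since no source ties equal numbers to a shared animal or day.

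The 9 genes and all lists were chosen with earlier results of these data known. All 9 are named in each comparison. Of each other list the 2 genes with the smallest p in each direction were to be named for WT days and day 12 genotypes, and of cell type and stress lists fewer are given. A gene under this rule is not reported here. For Fos, Fosl1 and Egr1 the 3 most alike genes are named. Positions and exon lengths are from GENCODE vM21 (GRCm38), promoter sequences from RefSeq (GRCm38.p6). Motifs were searched on both strands except TATAAA. RefSeq windows of Fosl1 and Egr1 were not used here. Alternatives were another test, filter, pseudocount, scaling, libraries in the fit, a replicate block, and each library left out.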

Additional observations from a re-analysis of the deposited data

How the results depend on the processing

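The fall of Fosl1 in WT cells was called under each alternative run, and that of Fosl1 and Fosl2 in Def6-/- cells under each alternative of test, filter, pseudocount, scaling and block. In WT cells the adjusted count of 3 genes was 5 with DESeq2 (Junb and Egr1 added) and 1 when the other genotype was left out of the fit (8.85% of tested genes called, against 18.3%). On CPM as deposited it was 3, with Egr1 in place of Fosl2. In Def6-/- cells the count of 5 was 2 without the filter on low genes (Fos, Atf3 and Egr1 lost), where more genes were tested, and 7 when WT cells were left out (Jun and Junb added, 31.7% of tested genes called, against 16.8%). When day 12 libraries alone were fitted, 1 gene, Jun, passed the looser rule between genotypes (adjusted p = 0.995 by limma), as did 4.49% of tested genes, against 1.4% in the fit of all libraries. Leaving out each library in turn gave adjusted counts of 1 to 6 in WT and 0 to 7 in Def6-/- cells, and 3 to 6 and 4 to 8 by the looser rule. For the genotypes at day 0 it gave 0 to 1 and 0 to 3, and for the interaction 0 to 1 by the looser rule. Where this left a group with 1 library, that library was assumed to vary like the others.

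Some differences that were not called with all libraries changed sign. Atf3 between genotypes at day 12 was -0.019 with edgeR and -0.014 with DESeq2, and Jun between genotypes at day 0 was -0.018, -0.013 and, with edgeR and the replicate block, -0.0043. With each library left out, the WT day difference ranged from -0.92 to 0.0033 for Jun and from -0.039 to 0.34 for Jund. The genotype difference at day 0 ranged from -0.69 to 0.18 for Atf3, -0.47 to 0.73 for Egr1, -0.10 to 0.86 for Fosl1, -0.049 to 0.41 for Fosl2, -0.45 to 0.47 for Jun and -0.98 to 0.65 for Junb. At day 12 it ranged from -0.40 to 0.57 for Atf3, -0.55 to 0.21 for Egr1, -0.42 to 0.15 for Fosb, -0.43 to 0.041 for Junb and -0.28 to 0.13 for Jund. The cause of these changes was not tested.

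With the replicate number as a block, the counts were 3 in WT and 5 in Def6-/- cells, and 6 and 7 by the looser rule, with 0 for both genotype comparisons and the interaction. Same-numbered libraries deviated together at day 0 (correlation over tested genes 0.327) and less elsewhere (0.0023 to 0.152). A block within each day, added after the day 0 libraries had been seen, gave 6 in WT (Junb, Atf3 and Egr1 added) and 7 in Def6-/- cells, where 24.4% and 20.9% of tested genes were called. Groups of 2 libraries and 6 to 24 reads for Fosb or for Fosl1 at day 12 limit what can be seen.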
